A study of Mus musculus and Mus musculus
Oryx dammah with 30 samples.

Results

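The miR-290 to miR-295 cluster is a row of short microRNA genes on mouse chromosome 7. It was followed here together with AU018091, a gene nearby that had been put forward as the host transcript. Members were all genes whose names begin with Mir290, Mir291, Mir292, Mir293, Mir294 or Mir295, plus AU018091. This gave 10 genes, of 53023 to 55456 entries in each of 3 mouse expression tables, namely 9 microRNA genes (Mir290a, Mir290b, Mir291a, Mir291b, Mir292, Mir292b, Mir293, Mir294 and Mir295) and AU018091. They were selected on their names, and the set was put forward after FPKM values of these same tables had been seen, so their differences between groups are given as a description and without a test.

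RNA-seq was performed on pools of nuclear transfer (NT) embryos, that is, fertilised mouse embryos (C57BL/6 and DBA/2 strains) that had been fused with whole C2C12 cells, a myoblast line of the C3H strain, and kept from dividing, in every group alike, by demecolcine (0.1 µg/ml). Newly made RNA was sought by culturing NT embryos with or without α-amanitin, an inhibitor of RNA polymerase II. The four-cell experiment had 3 pools of 3 embryos with α-amanitin and 3 without, with NT started at 46 hours post insemination (hpi). The replication experiment had 3 pools of 4 four-cell NT embryos in each of the groups D and DR, all without α-amanitin, which differ in whether NT came before or after DNA replication of that stage. The labels do not say which of D and DR is which. The two-cell experiment had 6 pools of 5 embryos with α-amanitin and 6 without, with NT started at 21 hpi (early) or 30 hpi (late). Its libraries carry the names Am and RAm with α-amanitin and NT and R without it, with 3 of each. Pools were independent biological replicates according to the study. Libraries without Am in their names were taken as untreated, and the pairs NT with Am and R with RAm are treated as 2 sets, since the names do not tell early from late. Donor and recipient transcripts were sequenced together, so a value cannot be assigned to either genome.

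In mouse embryonic stem cells and early embryos the cluster is made as 1 long primary RNA, from which Drosha with Dgcr8 and then Dicer1 cut the mature microRNAs. These are among the most abundant microRNAs of embryonic stem cells. Several of them share a seed, the bases that pair with target mRNAs, and they are known for lowering inhibitors of the cell cycle such as Cdkn1a (p21), Lats2 and Rbl2. AU018091 is annotated, in contrast, as a protein-coding gene for transport of arginine, lysine and ornithine across the plasma membrane.

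RefSeq (build GRCm38.p6) held 17 mature sequences from all 9 microRNA genes, of 1738 mature mouse sequences in all. miR-292a-3p was not used here, and the counts below are over these entries. They are shown for the arms that define the family, 5′ to 3′, with the seed (bases 2 to 8) in capitals.
miR-291a-3p: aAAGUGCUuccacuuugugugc
miR-294-3p: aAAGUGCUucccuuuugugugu
miR-295-3p: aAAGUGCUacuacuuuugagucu
miR-290a-3p: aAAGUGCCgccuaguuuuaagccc
miR-291b-3p: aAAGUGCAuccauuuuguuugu
miR-293-3p: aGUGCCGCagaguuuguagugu
The first 3 have an identical seed, which only 2 other sequences of the table, miR-302b-3p and miR-302d-3p, carry as well. Bases 2 to 7 are the same in the first 5, and these 5 are among 8 such sequences of the 1738. miR-293-3p lacks this seed and has GUGC nearer to its 5′ end. The opposite arms form a second family, and all 6 mature sequences of the table with CUCAAA at bases 2 to 7 come from the cluster. Of these, the arms of the first and the last gene are shown, with miR-290b-3p for its position.
miR-290a-5p: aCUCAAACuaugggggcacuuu
miR-295-5p: aCUCAAAUguggggcacacuuc
miR-290b-3p: aAGUGCCCccauaguuugagua
miR-290a-5p lies on the plus strand at chr7:3218639-3218660 and miR-290b-3p on the minus strand at chr7:3218638-3218659, so these are opposite strands of 1 stretch of DNA. The libraries do not record strand. Poly(A)-primed cDNA also does not measure mature microRNAs of this length, so the reads below are taken as those of longer RNA that covers the genes.

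The 9 microRNA genes span 2216 bases of mm10, from the start of Mir290a (chr7:3218626-3218708) to the end of Mir295 (chr7:3220773-3220841). They are 58 to 84 bases long, with 7 on the plus strand, while Mir290b and Mir292b lie on the minus strand inside Mir290a and Mir292. AU018091 (ENSMUSG00000054753, chr7:3154658-3169203) is on the minus strand and ends 49423 bases before Mir290a, so by its coordinates it does not contain the cluster and is not its host. A gene of the tables that does overlap it is Nlrp12 (chr7:3218784-3249740, minus strand), which codes for an inflammasome-family receptor of innate immune cells. Its exon at chr7:3218784-3222560, nearly all of it annotated as untranslated, contains 7 of the 9 microRNA genes, leaving out only Mir290a and Mir290b. RefSeq places a long non-coding RNA, D7Ertd143e, on the plus strand at chr7:3218784-3221015, ending 174 bases after Mir295, but none of the 3 tables lists it.

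**Figure D1:**
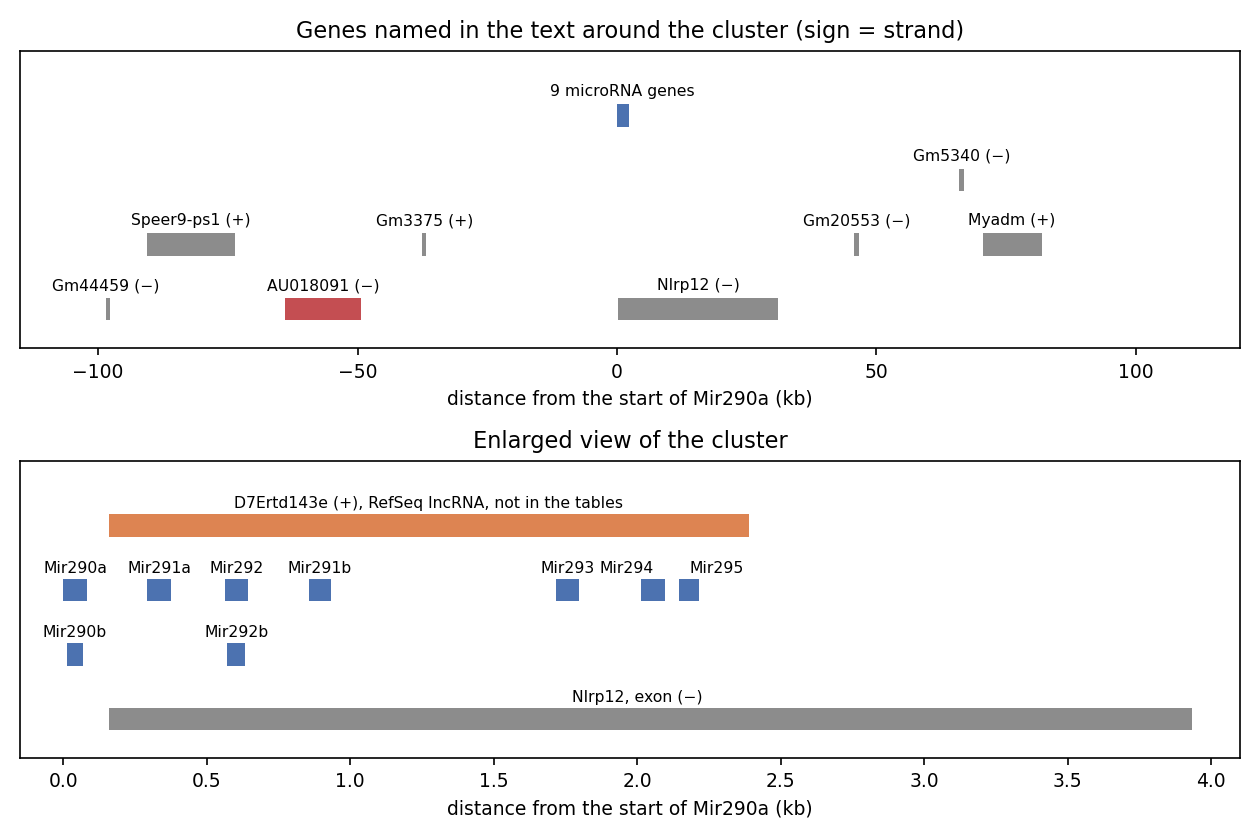
Genes named in the text near the cluster (top) and the cluster itself (bottom), by distance in kb from the start of Mir290a, with strand signs. AU018091 ends 49423 bases before the cluster, whereas 7 of the 9 microRNA genes lie inside 1 exon of Nlrp12 and under the RefSeq RNA D7Ertd143e.

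Because short genes reach a high FPKM (fragments per kilobase of gene per 1000000) from few reads, FPKM was first turned back into reads. Libraries had 1136771 to 3101002 reads on genes in the four-cell experiment, 2603946 to 19181387 in the replication experiment and 4712268 to 10503779 in the two-cell experiment. In the four-cell table all values were whole reads, while in the other tables only 39.8% to 52.3% of values under 100 reads were whole and the rest were fractions of a read, in hundredths. The 3 RAm libraries stood apart, with 52.3% to 56.0% of their reads on their 10 most read genes against 27.1% to 32.3% in Am and 10.3% to 22.5% in untreated two-cell libraries. They also had fewer genes at an FPKM of 1 or more, 10242 to 10771 against 13100 to 15546 in the other two-cell libraries. The four-cell groups also differed, with 16% to 23.6% of reads on the 10 most read genes, 11.4% to 19.0% on mitochondrial genes and 8459 to 8744 genes at an FPKM of 1 or more with α-amanitin, against 9.13% to 9.84%, 5.76% to 6.09% and 10255 to 10958 without. The part of these differences in the results was not tested. Of 10 oocyte and embryo markers, 5 to 9 were at an FPKM of 1 or more in every library of each group. Of 12 myoblast markers 3 or 4 were. Of those that define the lineage, Myog and Myf5 were at 0 in every untreated four-cell library and at up to 8 and 4 reads in a treated one, and Myod1 had 2 to 13 reads untreated and 0 to 15 treated. In the replication experiment Myod1 had 11 to 100 reads in D and 1 to 13 in DR, Myog 0 to 198 in D and 0 to 0.5 in DR, and Myf5 0 to 27 in D and 0 in DR. In two-cell embryos Myog was at 0 in all libraries, Myod1 had up to 4 reads untreated and 5 treated, and Myf5 had up to 70 untreated and 0 treated. Lgals1 and Acta2, which many cell types express, averaged 474 and 97.9 FPKM over the four-cell libraries.

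In the four-cell experiment all 9 microRNA genes had 0 reads in all 6 libraries. This value carries no information on the cluster, for the table assigned no read to any gene of this kind: of 874 genes that lie wholly inside 1 exon of another gene, 0 had a read in any library. Reads fell on 597 of the same number (68.3%) in the replication experiment and on 642 of 943 (68.1%) in the two-cell experiment. Of the 9 microRNA genes, 8 are of this kind, and the ninth, Mir290a, is mostly covered by Mir290b. The microRNA genes were therefore compared only within the replication and two-cell experiments. How a read that overlaps both a microRNA gene and Nlrp12 was counted is not given in the sources used here.

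Across the 18 libraries of those 2 experiments the microRNA genes together held 243.65 reads, so each value below rests on few molecules. Of 46 nonzero values of single microRNA genes, only 13 were whole, and the rest held fractions of a read. Whether those reads come from the cluster alone was not tested. Reads increased along the cluster toward its 3′ end. Mir295, the last gene, took 132.91 of them (54.6%). Mir294 followed with 52.41 reads (21.5%) and Mir293 with 33.67 (13.8%), while Mir291b had 15.0, Mir291a 4.5, Mir292 3.33, Mir290a 1.5 and Mir292b 0.33 reads. Mir290b had none. Mir295 also had the highest FPKM of the cluster in 11 of the 13 libraries with any read, and the 2 exceptions, DR1 and DR3, held 0.5 and 1.5 reads in all. Mir295 is shorter than Mir294 and Mir293 (69 against 84 and 80 bases), so its lead is also one per length. From Mir293 over Mir294 to Mir295 reads increased in D1, D5, DR2, NT1, NT2 and NT3, while in D4 Mir294 was lowest of the 3.

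**Figure D2:**
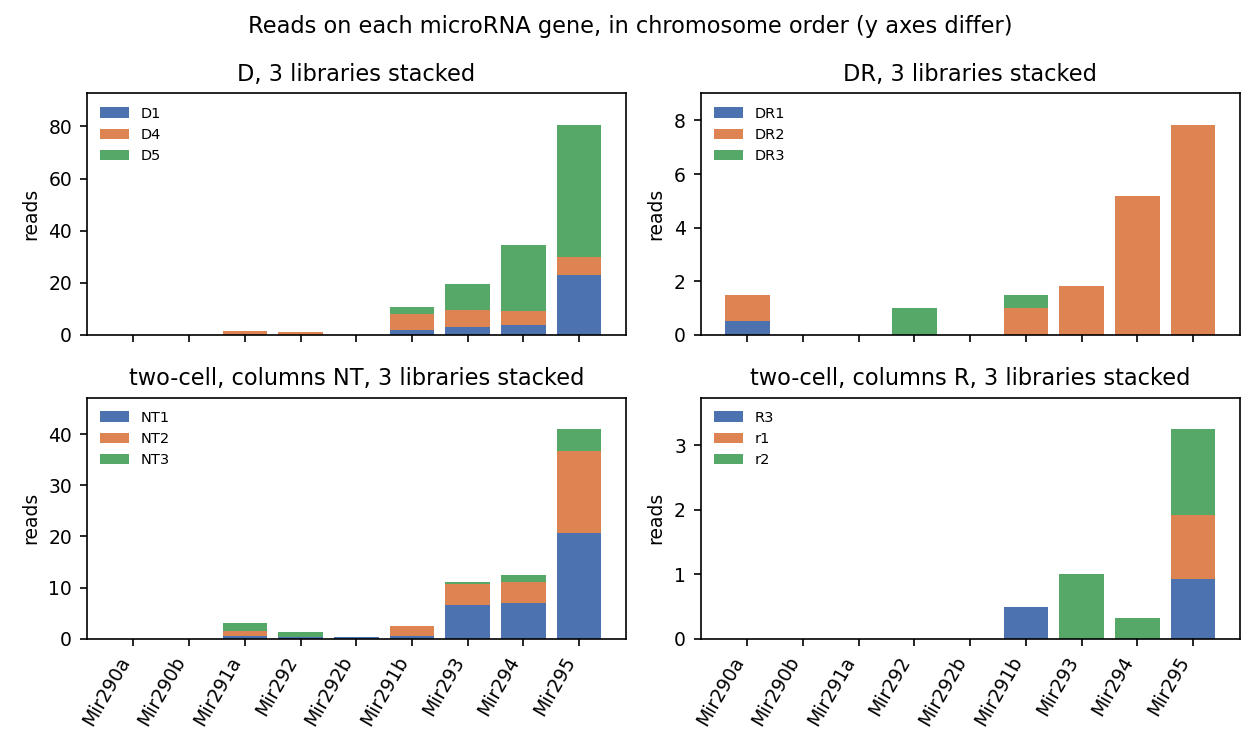
Reads on each microRNA gene in chromosome order, for groups D and DR and for the untreated two-cell libraries NT and R, with the 3 libraries of each stacked and a separate vertical axis in each panel. Mir295 has the tallest column in all 4 panels, with 80.58 reads over the D libraries.

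In the two-cell experiment the cluster was read almost only without α-amanitin. The 9 genes together had 36.0, 27.17 and 8.58 reads in libraries NT1, NT2 and NT3, and 1.42, 1.0 and 2.66 reads in R3, r1 and r2. With α-amanitin they had 0.25 of a read in Am3 and 0 in each of the other 5 libraries, which allows up to 0.318 to 0.637 reads per 1000000 at a floor of 3 reads per library. All untreated libraries thus had more reads than any treated one, as held for 16.3% of all genes tested (2.95% in the other direction). For the R libraries this rests on fewer than 3 reads each, at 0.101 to 0.272 per 1000000, so a difference from the treated libraries was not detectable there, and only the NT libraries were above the floor. Per 1000000 reads on genes this was 4.61 (95% exact Clopper-Pearson interval on rounded reads 3.23 to 6.38), 2.59 (1.69 to 3.74) and 1.13 (0.543 to 2.25) in NT1 to NT3. The mean of NT was 2.78 ± 1.75 (SD, n = 3), at least 5.68-fold higher than Am, with each Am library set at 3 reads, and at least 3.81-fold without NT1. Intervals and floors cover counting error only, since reads amplified by PCR are not independent molecules. In R the mean was 0.173 ± 0.0889 (SD, n = 3), under the floor, so no fold against RAm is given.

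Mir295 led these numbers with 20.75, 16 and 4.25 reads in NT1, NT2 and NT3, at least 3.23-fold higher than Am on the same floor and at least 2.13-fold without NT1. It had 0.92, 1.0 and 1.33 reads in R3, r1 and r2, where all values are at the level of 1 molecule. Mir294 had 6.92, 4.17 and 1.33 reads and Mir293 had 6.67, 4.0 and 0.5 reads in NT1 to NT3, and both were at 0 in the Am and RAm libraries. NT1 was highest for all 3 genes and NT3 lowest. Mir291a, Mir291b, Mir292 and Mir292b never exceeded 2.0 reads in a two-cell library, so differences among them were not detectable at this depth. Of the 10 members, 4 passed the filter on low values (3 or more libraries at an FPKM of 1 or more). Mir293, Mir294 and Mir295 passed the filter only through the untreated libraries, so nothing is read from this count.

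In the replication experiment both groups held reads of the cluster, and their ranges overlapped. The D libraries had 31.83, 27.33 and 88.58 reads in D1, D4 and D5, or 5.25, 1.42 and 12.7 per 1000000 reads on genes. The DR libraries had 0.5, 16.83 and 1.5 reads in DR1, DR2 and DR3, or 0.144, 3.96 and 0.576 per 1000000. The means were 6.46 ± 5.74 in D and 1.56 ± 2.09 in DR (SD, n = 3), with DR2 above D4. D4 was the deepest library and had the lowest value of its group. Mir295 alone had 22.83, 7.17 and 50.58 reads in D1, D4 and D5, against 0, 7.83 and 0 in DR1 to DR3. Mir294 had 3.83, 5.33 and 25.33 reads in D and 5.17 in DR2, with 0 in DR1 and DR3. A single library thus held most of the reads in each group, D5 for D and DR2 for DR, and without DR2 the DR mean was 0.36 per 1000000, and without D5 the D mean was 3.34. Differentially expressed genes (DEGs) were those with an adjusted p under 0.05 and at least a 4-fold difference. In limma, 0 of 14570 genes were DEGs between DR and D (0% called), 897 had an unadjusted p under 0.05, and limma-voom on the recovered reads also called 0.

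**Figure D3:**
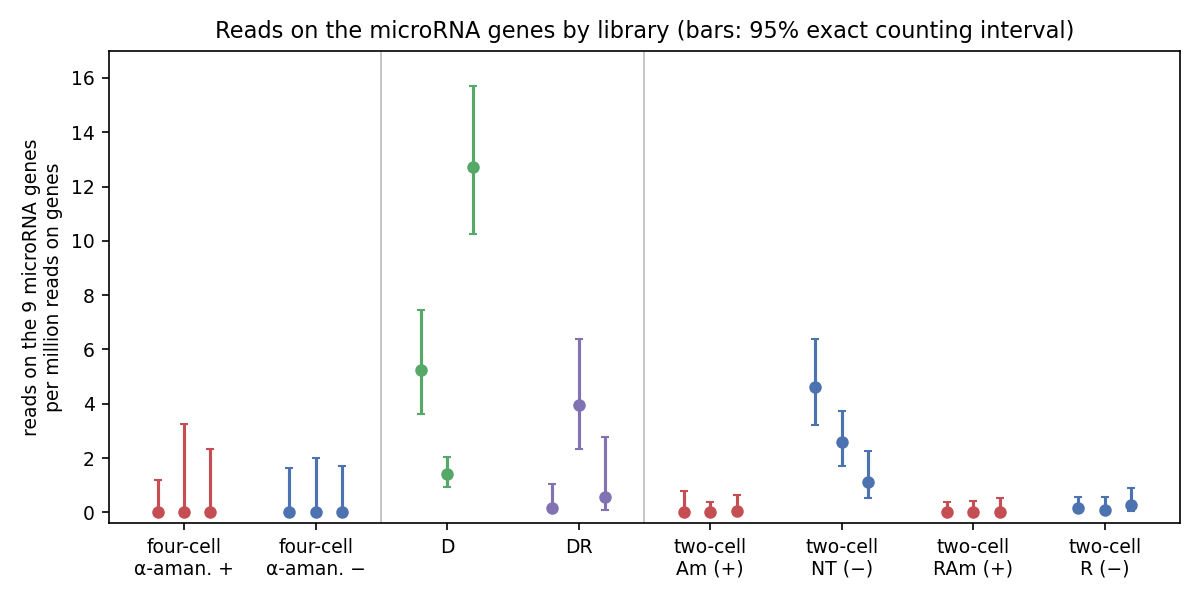
Reads on the 9 microRNA genes per 1000000 reads on genes in each of the 24 libraries, with 95% exact counting intervals. NT libraries lie at 1.13 to 4.61, all above the other two-cell libraries, D and DR overlap, and the four-cell libraries are at 0, in a table that assigned no reads to genes nested in exons.

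AU018091 was measured far better, with 51 reads or more in all libraries except RAm. In the four-cell experiment it had 12.3, 17.2 and 18.7 FPKM with α-amanitin and 12.1, 16.5 and 27.1 without. The groups overlapped, whereas 27.6% of all genes tested were separated with higher and 7.56% with lower values without α-amanitin. The fitted difference (untreated minus treated, log2(FPKM + 1) scale) was 0.14 ± 0.38 (SE), below the median of 0.37 over all genes tested. In the replication experiment the values were 11.0, 18.7 and 27.6 FPKM in D and 18.6, 22.2 and 24.4 in DR, again overlapping, where 8.21% of all genes were separated with DR higher and 3.99% with DR lower. The DR minus D difference was 0.26 ± 0.35 (SE).

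In two-cell embryos AU018091 was higher without α-amanitin in every library. Untreated libraries had 6.62, 9.69 and 9.42 FPKM in NT1 to NT3 and 16.3, 17.1 and 17.2 FPKM in R3, r1 and r2. Treated libraries had 3.02, 2.91 and 4.03 FPKM in Am1 to Am3 and 0.49, 0.775 and 0.00548 FPKM in RAm1 to RAm3, the last of these from 0.14 of a read. The 2 groups did not overlap, which held in this direction for 16.3% of all genes tested and in the other for 2.95%. The ratio of means was 2.59 in the NT and Am set, where 24.7% of all genes were separated in this direction, and 39.8 in the R and RAm set, where 58.1% of all genes were separated in this way. Without RAm2 the latter ratio was 67.8 and without RAm3, the library with 0.14 of a read, it was 26.6. Fitted differences were 2.42 ± 0.42 (SE) over both sets, 1.14 ± 0.28 in NT against Am and 3.69 ± 0.29 in R against RAm, on the log2(FPKM + 1) scale, while the medians over all genes tested were 0.67, 0.26 and 1.31. The wider gap in the R and RAm set thus went with libraries in which most genes were lower. Spike-in RNA, added at a fixed volume to each pool, took 2.38% to 2.81% of reads in R and 8.77% to 11.3% in RAm, and 3.15% to 6.26% in NT and 6.54% to 8.93% in Am. With scaling to the spike-ins the difference over both sets was 3.35, beside a median of 1.5 over all genes tested.

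Among untreated two-cell libraries AU018091 and the cluster were in opposite order. AU018091 was highest in R, whereas reads on the microRNA genes were highest in NT, with no overlap between the sets for either. Of all genes tested 15.4% were separated with R higher and 11.7% with NT higher, so such a separation was common in both directions, and the R values of the cluster lie under the floor. This is a description, since what separates the sets is not stated in the library names. Ordered by mean FPKM, AU018091 stood at 21.8 in DR, 19.1 in D, 18.6 in untreated four-cell embryos, 16.9 in R, 16.1 in treated four-cell embryos, 8.58 in NT, 3.32 in Am and 0.424 in RAm. DR, D and untreated four-cell embryos do not differ beyond their spread, nor do D, both four-cell groups and R, while the ranges of DR and R do not overlap, and the tables were normalised and counted separately, so the order across experiments is approximate. The genes most like AU018091 over the 24 libraries, of 9102 compared on log2(FPKM + 1), were Dppa2 (Pearson r = 0.951), Tead4 (0.949), Dnaja1 (0.949), Smyd5 (0.945) and Nup155 (0.944). Dppa2 encodes an activator of early embryonic genes, Tead4 a transcription factor of the trophectoderm, Dnaja1 a co-chaperone and Nup155 a nuclear pore protein. Within the 12 two-cell libraries r was 0.938 to 0.978 for these genes, while within the 6 four-cell libraries it was -0.0581 to 0.704 and within the 6 replication libraries 0.0278 (Dppa2) to 0.923 (Dnaja1), and the points of the two-cell table share the drug contrast and the composition of the RAm libraries.

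Nlrp12 covers 7 of the microRNA genes, mostly on the opposite strand, and was followed for that reason. In four-cell embryos it had 10, 0 and 3 reads with α-amanitin and 88, 33 and 109 without. The groups did not overlap, and the fitted log2 difference was 2.16 ± 0.43 (SE, n = 3). It is given without a call, since the gene passed the low-value filter only through the untreated group, and without the filter the limma adjusted p was 0.0849. In two-cell embryos Nlrp12 had 1.22 to 3.13 FPKM untreated and 0.00626 to 1.26 treated, a difference of 1.18 ± 0.27 (SE, n = 6) that is under 4-fold. It is also given without a call, since the treated libraries alone would not have passed the filter, and without the filter the limma adjusted p was 0.0128. The difference was 0.69 ± 0.33 in NT against Am (limma adjusted p = 0.190) and 1.67 ± 0.21 in R against RAm (limma adjusted p = 0.000229). In the replication experiment it had 1.98 to 5.57 FPKM in D and 1.03 to 2.94 in DR, with a difference of -0.67 ± 0.40 (SE, limma adjusted p = 0.797).

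The reads of the cluster were also set against those of Nlrp12. In NT1 to NT3 the reads on the cluster amounted to 19.5%, 15.4% and 12.3% of those on Nlrp12, in D1, D4 and D5 to 19.6%, 9.52% and 30.2%, and in DR1 to DR3 to 1.85%, 17.9% and 4.29%. The value of DR1 is 0.5 of a read on Mir290a, which lies outside Nlrp12. In R3, r1 and r2 they were 0.635%, 0.737% and 1.38%, at 224, 136 and 192 Nlrp12 reads. Nlrp12 itself was at 2.19 ± 0.955 FPKM in NT and 2.49 ± 0.631 in R (SD, n = 3), with overlapping ranges, while the ranges of the ratio did not overlap. Without strand, or the position of reads within the gene, the reads of Nlrp12 and of D7Ertd143e cannot be told apart.

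**Figure D4:**
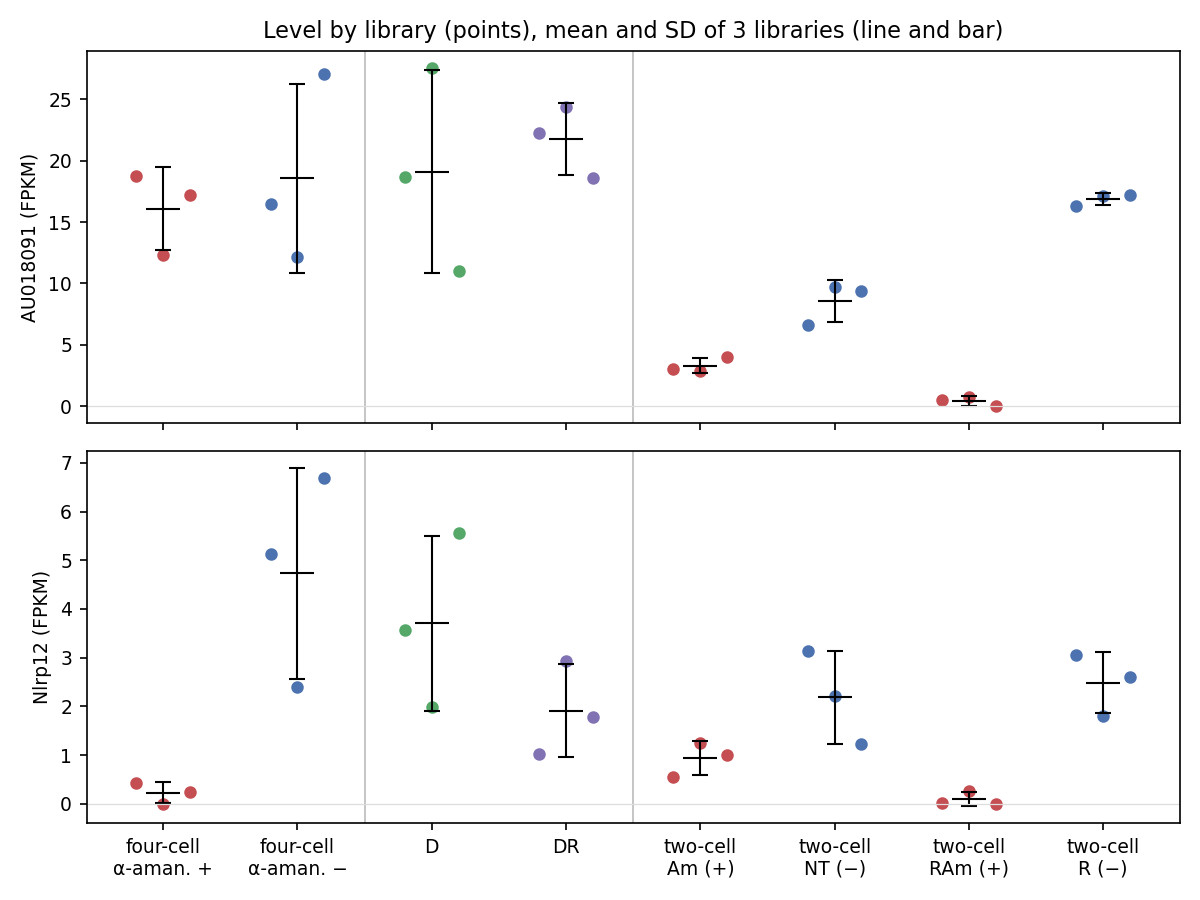
FPKM of AU018091 (top) and Nlrp12 (bottom) in every library, with the mean and SD of 3 libraries, vertical lines separating the 3 experiments. AU018091 does not follow α-amanitin in four-cell embryos and is lowest in RAm (mean 0.424), while Nlrp12 is near 0 with α-amanitin in four-cell embryos and in RAm.

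Genes within 100 kb of the microRNA genes were described as neighbours, Nlrp12 among them. Myadm, which encodes a membrane protein of myeloid and other cells, had 10.7 ± 5.31 FPKM without α-amanitin in two-cell embryos and 0.726 ± 0.701 with it (SD, n = 6, log2 difference 2.73 ± 0.36 SE). It too is given without a call, since the treated libraries alone would not have passed the filter, and without the filter the limma adjusted p was 0.00116. The processed pseudogene Gm3375, between AU018091 and the cluster, had a difference of 2.20 ± 0.78 (adjusted p = 0.0318), but in NT against Am it was 0.07 ± 0.26 (adjusted p = 0.874) against 4.33 ± 0.20 in R against RAm (adjusted p = 5.68e-06). Its call was lost on leaving out RAm1, RAm2, RAm3, NT1, R3, r1 or r2 (adjusted p = 0.0525 to 0.0752), without the filter (0.0885) and under median-of-ratios scaling (1.43, adjusted p = 0.0683). Gm5340 and Speer9-ps1 differed by 1.10 and 1.38 in the same direction, under 4-fold. Gm44459 and Gm20553 had 0 reads in the four-cell experiment.

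Of 21 processing and effector genes, 14 were tested in four-cell embryos and 0 were DEGs by limma (1 at an unadjusted p under 0.05, and 0 by limma-voom), where 6.2% of all genes were DEGs higher without α-amanitin. Ran, the GTPase that drives export of precursors by Xpo5, was the highest at 399 FPKM, with a difference of 0.02 ± 0.20 (SE). In two-cell embryos 1 of 18 (5.56%) was a DEG, Ddx5, an RNA helicase of the Drosha complex (2.09 ± 0.53, limma adjusted p = 0.00758), against 11.1% of all genes, and 8 had an unadjusted p under 0.05. With median-of-ratios scaling 0 of the 18 were DEGs and with spike-in scaling 5, where 5881 of 17196 genes were DEGs higher without α-amanitin. With lists this short, the counts are not set apart from those of all genes. Ddx5 fell under 4-fold without RAm1 (1.85), RAm2 (1.96) or RAm3 (1.75) and in NT against Am (1.03). Dicer1 there had 0.45 ± 0.30 (adjusted p = 0.223). The median of the list was 0.22 in four-cell and 0.53 in two-cell embryos, beside 0.37 and 0.67 for all genes.

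Of 6 transcription factors known to bind the promoter of the cluster in embryonic stem cells, 4 were tested in four-cell and 3 in two-cell embryos, and limma called 0 in each (2 in each at an unadjusted p under 0.05), where 6.57% and 12.7% of all genes were called. limma-voom called 0 in four-cell and 1 in two-cell embryos, where it called 973 of 9884 and 5249 of 17196 of all genes. Pou5f1 (Oct4) averaged 10.3 FPKM in four-cell embryos with a difference of 0.21 ± 0.46 (SE). Nanog had -1.10 ± 0.31 in two-cell embryos (limma adjusted p = 0.0122), lower without α-amanitin but under 4-fold, and Klf4 had 0.79 ± 0.42 (adjusted p = 0.127).

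Among 13 known targets of the seed family, 6 were tested in four-cell embryos, and of these Cdkn1a, an inhibitor of the cell cycle and target of p53, differed most. It rose without α-amanitin in four-cell embryos from 13.8 ± 0.817 to 193 ± 81.3 FPKM (SD, n = 3, log2 difference 3.61 ± 0.37 SE, limma adjusted p = 0.00249). It was the sole DEG of the 6, where 6.2% of all genes were DEGs higher without α-amanitin, and its call held under all 10 alternatives run. Of the 6, limma-voom called 4 higher, and of all 9884 genes 929. In two-cell embryos 2 of 7 rose, against 11.1% of all genes, Cdkn1a (2.17 ± 0.63, adjusted p = 0.0137) and Wee1, a kinase that holds cells before mitosis (2.38 ± 0.50, adjusted p = 0.00276). Under median-of-ratios scaling 0 of these 7 were DEGs, with spike-in scaling 4, in R against RAm 4 and in NT against Am 0. Of all genes, 5881 of 17196 were DEGs higher without α-amanitin with spike-in scaling. In R against RAm 4747 of 14387 were, and in NT against Am 470 of 14285. With so few targets, the counts are not set apart from those of all genes. Both were under 4-fold in NT against Am (1.75 and 1.34), and Cdkn1a also without RAm1 (1.99), RAm3 (1.81) or NT1 (1.70). The medians of the tested targets were 1.35 and 1.52, beside 0.37 and 0.67 for all genes tested, and without the filter 0.955 and 0.690, beside 0.195 and 0.0946. In four-cell embryos 5 targets were tested without any 1 untreated library, and 6 without any treated one. A target thus passed the filter only through the untreated group, so nothing is read from these medians. In the replication experiment 0 of 9 tested entries (2 of them for Lats2) were DEGs by limma, 0 had an unadjusted p under 0.05 and 0 were called by limma-voom, and Cdkn1a was at 194 ± 96.7 FPKM in D and 173 ± 8.78 in DR.

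The remaining lists gave the cell types that the pools could hold. Of 10 oocyte and embryo markers 0 of 9 tested were DEGs in four-cell embryos (3 at an unadjusted p under 0.05, and 0 by limma-voom). In two-cell embryos 2 of 10 fell without α-amanitin, where 1.58% of all genes were DEGs in this direction, Bmp15 (-2.42 ± 0.79, limma adjusted p = 0.0230) and Nlrp5 (-2.17 ± 0.37, adjusted p = 0.000827). Dppa3, the most abundant marker of the list at 6442 FPKM, went the other way (1.77 ± 0.61, adjusted p = 0.0281), under 4-fold. Under median-of-ratios scaling 7 of 10 fell, where 749 of 17196 genes did. With spike-in scaling 0 fell and 1 rose, where 28 genes fell and 5881 rose. The call of Bmp15 was lost without RAm1, RAm2 or RAm3 (adjusted p = 0.0515 to 0.0534) and without the filter (0.0711), that of Nlrp5 without RAm1 (-1.97, under 4-fold), and both in NT against Am (-0.60 and -1.75) and with spike-in scaling (-1.14 and -0.92). Of 12 myoblast markers, 0 of 5 tested were DEGs in four-cell embryos (1 at an unadjusted p under 0.05, and 0 by limma-voom), and 2 of 7 rose in two-cell embryos (11.1% of all genes), the matrix genes Col3a1 (3.08 ± 0.40, adjusted p = 0.000141) and Fn1 (2.77 ± 0.42, adjusted p = 0.000409), both of which held under all 20 alternatives run. The 3 most abundant of the list did not rise in this way: Lgals1 (1321 FPKM) had -1.45 ± 0.68 (limma adjusted p = 0.0876), Vim 0.10 ± 0.55 and Acta2 0.14 ± 1.01. Summed over the list, myoblast markers ranged from 133 to 4113 FPKM in untreated and from 1072 to 2196 FPKM in treated two-cell libraries. Of 7 trophoblast markers 3 were tested in four-cell embryos, where 6.2% of all genes were DEGs higher without α-amanitin. Krt18 had 2.82 to 18.8 FPKM untreated and 0 to 0.691 treated, and since it passed the filter only through the untreated group (adjusted p = 0.0841 without the filter), no call is read from it. Tfap2c was called, with a difference of 2.03 ± 0.50 (limma adjusted p = 0.0350). Its call was lost in 8 of the alternatives run, among them no filter (adjusted p = 0.0999) and median-of-ratios scaling (adjusted p = 0.0583). In two-cell embryos 1 of 3 tested rose (11.1% of all genes), Tfap2c (2.60 ± 0.37, limma adjusted p = 0.000258), though under 4-fold in NT against Am (1.56). The other tested markers were lower without α-amanitin, Krt18 at -0.95 ± 0.34 (adjusted p = 0.0334) and Gata3 at -0.50 ± 0.38 (adjusted p = 0.279). Cdx2, which defines that lineage, was at 0 in all four-cell and replication libraries. The part of cell type composition in the values of the cluster was not tested.

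Other microRNA genes showed the same dependence on the table. Of 1158 other named microRNA genes 38 (3.28%) had reads in the four-cell table, 372 (32.1%) in the replication table and 365 (31.5%) in the two-cell table. The most read were Mir3473a in four-cell embryos (122 reads over 6 libraries) and Mir682 in the other tables (3556 and 4177 reads over 6 and 12 libraries), far above the 132.91 reads of Mir295 over both.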

How the data were processed

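RNA from pooled NT embryos had been made into cDNA with the SMART-seq v4 kit and into Nextera XT libraries, which do not mark strand. The authors deposited FPKM per gene for each library. Per the labels and the study's methods, they trimmed reads with Trimmomatic, Trim Galore and cutadapt and mapped them with STAR to mm10, and featureCounts is named among the tools. Versions, annotation and counting options are not given in the sources used here. FPKM times gene length in kilobases summed to 1000000 in each library, spike-ins included where listed. Reads were recovered from the size of the smallest steps. Of values under 100 reads, 100% in all libraries were whole hundredths of a read (within 0.002 reads). These depths set counting precision.

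Each table was fitted alone with limma 3.58.1 (R 4.3.3, mean-variance trend) on log2(FPKM + 1), which understates changes of low genes, over genes that reached an FPKM of 1 in 3 or more libraries. P-values were two-sided and adjusted by the Benjamini-Hochberg procedure over all genes tested. The study's own tests normalised to spike-ins. Spike-in scaling is an alternative here, since the four-cell table lists no spike-ins and spike-in factors ranged from 0.131 to 5.53 in the replication table. Groups came from the sample labels, matched to library names by group and not by replicate. P-values measure the spread between pools. 95% intervals are exact Clopper-Pearson intervals. The fit was tested on simulated data. Members and gene lists were chosen with earlier results of these data known. Named were all members, all genes within 100 kb except 1 that is not reported here, the 5 genes most like AU018091, and of each list the DEGs, with others from the 3 most abundant genes tested. Alternatives were another pseudocount, no filter, other scalings, leaving out each library, limma-voom, and the two-cell sets alone or as a covariate. 4 further columns with values per library, whose names match no group, were not used. The table on oryx donor cells holds oryx gene identifiers, values per library and the authors' own test results, and was not used.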

Additional observations from a re-analysis of the deposited data

Results flagged for a closer look

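Among treated two-cell libraries, Am3 stood away from the other 5 in reads on the microRNA genes, at 0.0423 per 1000000 reads on genes against 0 in each of the others. That value is 0.25 of a read on Mir295, under the floor of 3 reads. Of 6 combinations of a group of 6 libraries with the cluster, AU018091 or Nlrp12, this was the sole one with such a gap. Since the other 5 values are exactly 0, any value above 0 would stand apart in this way, so the rate of about 1 in 20 that chance gives does not apply.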

How the results depend on the processing

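The 649 DEGs of the four-cell experiment became 264 without the filter and 60 to 889 on leaving out 1 library, lowest without an untreated library (60 without S7, 88 without S15, 127 without S17), and 973 with limma-voom, just under 1.5 times. The 2178 DEGs of the two-cell experiment became 5050 with a pseudocount of 0.1, 5909 with spike-in scaling, 5249 with limma-voom, 540 in NT against Am and 5635 in R against RAm, and median-of-ratios scaling moved the split from 1906 higher and 272 lower to 851 and 749. The replication experiment gave 0 DEGs under all settings run. Among the lists, median-of-ratios scaling left 1 of the trophoblast markers in four-cell embryos, and 0 processing genes, 0 targets and 7 oocyte and embryo markers in two-cell embryos, and the two-cell myoblast markers went from 2 rising to 2 rising and 1 falling (3 in all), as in R against RAm.

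The two-cell difference of AU018091 was 3.41 with a pseudocount of 0.1, 3.35 with spike-in scaling, 1.93 with median-of-ratios scaling, 1.14 in NT against Am and 3.69 in R against RAm, and 2.16 to 2.62 on leaving out 1 library. Its direction held in all of these. The median of all genes moved from 0.67 to 1.5 with spike-in scaling and to 0.23 with median-of-ratios scaling. In the replication experiment the difference turned to -0.99 with spike-in scaling, where the median of all genes was -1.03. In the four-cell experiment it was -0.15 to 0.40 across settings, within the spread. The cluster means moved by less than 1 SD under median-of-ratios scaling. The causes of these shifts were not tested.

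For Nlrp12 in two-cell embryos the difference passed 4-fold with a pseudocount of 0.1 (2.54) and with limma-voom (3.41). The voom fits, the sets of two-cell columns (alone or as a covariate), the ratios and lower bounds without 1 library and, for results other than AU018091, the two-cell fits without 1 library were chosen after seeing the data. Planned fits with count models were not run, because the deposited unit is FPKM. No paired analysis was possible because no pair of groups compared shares 2 numbers that match the sample labels: those of DR do, those of D (1, 4 and 5) and of the four-cell libraries do not, and two-cell names could not be matched to early or late titles. Depth limits the microRNA genes: under 3 reads in a library, levels and differences were not detectable.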
